A study of Mus musculus with 18 samples.

Results

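Transcript levels of 33 genes of the Hippo pathway, its target genes and the fetal-like, regenerative gene set of the intestine were read in sorted stem cells of the mouse intestine, in 18 libraries. The genes were taken by name from a list, of 43432 gene identifiers counted in all, and each of the 33 matched 1 identifier. The libraries came from 5 Dlg1 knock-out and 5 wild-type samples dissected 14 days after tamoxifen, and from 4 knock-out and 4 wild-type samples dissected 2 days (48 hours) after it. Tamoxifen, which switches on the recombinase that deletes Dlg1, was given to mice of both genotypes, aged 8 to 16 weeks, and 5000 to 10000 cells were sorted per sample. Dlg1 codes for a scaffold protein of apical-basal polarity, and the series set knock-out against wild-type stem cells at both times to find genes that differ. The sources used here do not give the Cre driver, the deleted exons, the sort gate or whether each sample was a separate animal, so p-values measure the spread between these samples, which may be technical in part.

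The Hippo pathway is a chain of kinases. Mst1 and Mst2 (genes Stk4 and Stk3), with the scaffold Sav1, activate Lats1 and Lats2, which act with the adaptors Mob1a and Mob1b. Lats kinases phosphorylate the co-activators Yap (Yap1) and Taz (Wwtr1) and hold them out of the nucleus. When the kinases are off, Yap and Taz bind the Tead factors at the DNA and switch on genes such as Cyr61 and Ctgf, which code for secreted matrix proteins, and Ankrd1. In the gut, Yap is known for its part in regeneration, when crypt cells take up genes of the fetal epithelium such as Ly6a and Clu and make EGF-type growth factors such as Areg and Ereg. Polarity proteins are among the inputs of the pathway.

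Tead factors bind a core of 6 letters, GGAATG, or CATTCC on the other strand. It was looked for on both strands in the 250 bases before the annotated start of each gene, in the RefSeq table of build GRCm38.p6. The letters stood in 12.6% of 32851 such windows. Of the 33 genes, 24 had a window, 12 of them with the core and 12 without. The windows of 3 genes follow because they belong to a target at a high level (Cyr61), a target close to 0 (Ankrd1) and an upstream scaffold that is itself a known Yap target (Amotl2), each read 5′ to 3′ along the gene, with the core in capitals.
Cyr61, chr3:145649986-145650235, minus strand: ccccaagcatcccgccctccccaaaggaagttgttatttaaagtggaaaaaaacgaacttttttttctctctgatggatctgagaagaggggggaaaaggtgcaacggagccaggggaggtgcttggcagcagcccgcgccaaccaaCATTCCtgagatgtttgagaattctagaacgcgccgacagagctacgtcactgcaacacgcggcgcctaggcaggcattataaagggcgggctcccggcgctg
Ankrd1, chr19:36119845-36120094, minus strand: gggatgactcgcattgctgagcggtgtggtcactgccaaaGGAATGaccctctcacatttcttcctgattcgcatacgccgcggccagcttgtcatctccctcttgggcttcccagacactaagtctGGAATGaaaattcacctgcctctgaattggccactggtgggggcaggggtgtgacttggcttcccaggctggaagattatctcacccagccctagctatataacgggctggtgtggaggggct
Amotl2, chr9:102717554-102717803, plus strand: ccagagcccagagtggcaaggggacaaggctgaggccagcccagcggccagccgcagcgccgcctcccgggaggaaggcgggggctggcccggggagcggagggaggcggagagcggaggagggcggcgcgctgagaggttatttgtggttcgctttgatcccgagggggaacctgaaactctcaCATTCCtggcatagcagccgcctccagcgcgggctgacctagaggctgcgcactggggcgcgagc
The core began 103 bases before the start of Cyr61, 210 and 123 bases before that of Ankrd1 and 65 bases before that of Amotl2. The same letters thus stood before genes at very different levels, and a match of letters is no measured binding site. Yap1, Wwtr1, Tead3, Sav1, Mob1a, Vgll4, Wwc2, Anxa1 and Il33 also held the core in a window. Areg, Lats1, Lats2, Stk4, Mob1b, Nf2, Wwc1, Amot, Amotl1, Tead2, Frmd6 and Spp1 had a window and no core in it. Anxa3, Tead4, Ereg, Clu, Tead1, Stk3, Msln, Ctgf and Ly6a had no window in the table.

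The libraries held 11.1 to 15.7 M counts (M for mega) at 14 days and 14.8 to 40.5 M at 2 days, and mitochondrially encoded genes took 6.21% to 26.3% of the 14 day counts and 26.1% to 49.1% of the 2 day counts. Levels are given as CPM, counts per M of the library's total after TMM scaling, which evens out library composition, with libraries numbered by their place in the deposited table. A pair of libraries stood apart: satellite-like gene models took 47.0% of knock-out library 5 of 14 days, and wild-type library 1 of 2 days was the deepest and the richest in mitochondrial reads, at 40.5 M counts and 49.1%. Dlg1 itself had 56.8, 38.2, 36.9, 60.8 and 85.4 CPM in the 14 day knock-out libraries, against 55.3, 58.0, 54.0, 75.1 and 74.0 CPM in wild type. The 2 day knock-out libraries had 51.5, 68.4, 45.6 and 50.4 CPM of it, against 57.1, 74.8, 67.0 and 82.4 CPM in wild type. The genotypes overlapped at both times and neither difference passed the test below (log2 fold change -0.17 ± 0.22 at 14 days and -0.38 ± 0.19 at 2 days, SE; adjusted p = 0.957 and 0.866, edgeR). The counts cover the whole gene and not the deleted part, and knock-out and wild type are used below as labelled. The crypt base stem cell markers (Lgr5, Olfm4, Ascl2, Smoc2 and 6 others) all had reads. Their summed level was 2043 to 2874 CPM in knock-out and 2283 to 3044 CPM in wild type at 14 days, and 5437 to 6428 CPM in knock-out and 6251 to 7120 CPM in wild type at 2 days. In such bulk samples fewer cells of a type and less RNA per cell cannot be told apart.

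The secreted Yap target Cyr61 was among the most abundant of the 33 genes per length of exon in every group. Its level was 265 ± 45.9 CPM per kb of exon in knock-out and 336 ± 156 CPM per kb in wild type at 14 days (SD, n = 5 each). At 2 days it was 302 ± 103 CPM per kb in knock-out and 272 ± 87.3 CPM per kb in wild type (SD, n = 4 each). Areg, the EGF receptor ligand amphiregulin, came next at 2 days, at 104 ± 56.1 CPM per kb in knock-out and 88.8 ± 47.3 CPM per kb in wild type. At 14 days Areg stood at 348 ± 19.5 CPM per kb in knock-out and 311.5 ± 101 CPM per kb in wild type, next to Cyr61 and overlapping it. Mob1a followed in all 4 groups, at 17.3 ± 0.961 and 18.6 ± 2.64 CPM per kb in knock-out and wild type at 14 days and 48.1 ± 6.96 and 54.7 ± 4.95 CPM per kb at 2 days.

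The co-activator Yap1 stood at 3.97 ± 1.28 CPM per kb in knock-out and 4.54 ± 1.27 CPM per kb in wild type at 14 days, and at 8.53 ± 0.743 and 9.10 ± 0.689 CPM per kb at 2 days. Wwtr1, which codes for its partner Taz, had lower group means, between 2.82 and 3.74 CPM per kb. Of the Tead genes, Tead1 had the highest mean per length in every group, and Tead4 had the lowest, at 0.239 CPM per kb or less. Ctgf, Ankrd1, Anxa1, Msln, Spp1 and Tead4, 6 of the 33, averaged under 1 CPM in every group. Of the targets, Ctgf and Ankrd1 were thus at the edge of detection. Ctgf had 0 to 35 counts in a library and Ankrd1 0 to 7. Msln and Spp1, which code for mesothelin and osteopontin, had no count in any 2 day library, and a count of 0 allows up to 3 counts. At 14 days Msln had 0 to 5 counts and Spp1 0 to 1.

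**Figure D1:**
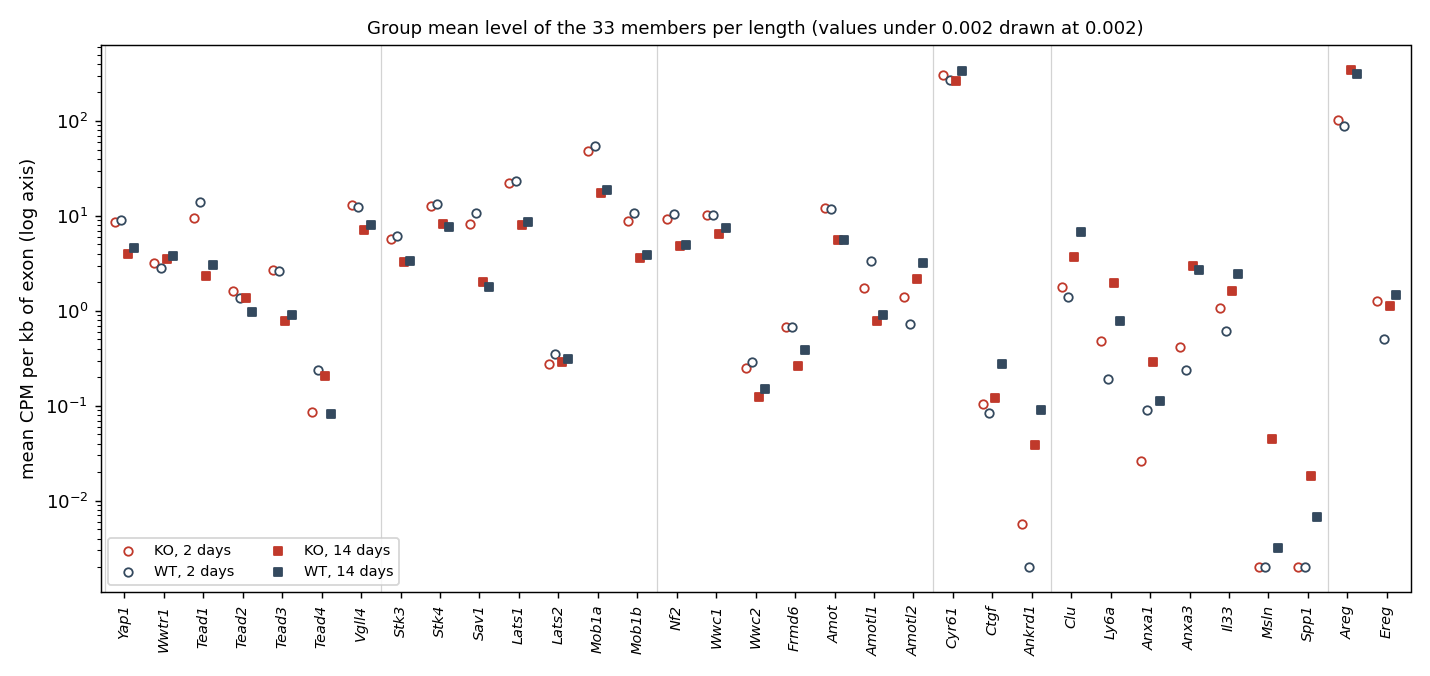
Group mean level of each of the 33 genes in CPM per kb of exon (log axis), with knock-out left of wild type at each time, open circles for 2 days and filled squares for 14 days; grey lines part the roles (co-activators and Tead factors, kinases and adaptors, upstream scaffolds, targets, fetal-like genes, growth factors). Cyr61 and Areg stand highest, and Ctgf, Ankrd1, Anxa1, Msln, Spp1 and Tead4 near the bottom.

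Loss of Dlg1 was first compared with wild type at each time. No gene of the 33 passed the test at either time, and no gene of the whole table did (edgeR quasi-likelihood test, adjusted p under 0.05 by Benjamini-Hochberg). Percent called over all genes was 0.0% of 13991 at 14 days and 0.0% of 13031 at 2 days. Of the 33 genes, 27 passed the filter on low counts at 14 days and 26 at 2 days. Both tests left out Ctgf, Ankrd1, Anxa1, Msln, Spp1 and Tead4, and the 2 day test left out Ly6a too. At 14 days 8 of the tested members lay above 0 and 19 below, with a median log2 fold change of -0.13, against 0.01 over all genes. At 2 days 14 lay above 0 and 12 below, with a median of 0.02, against 0.01 over all genes. An unadjusted p under 0.05 was reached by 1 member at 14 days, higher in knock-out, against 3.99% of all genes (558; 2.44% higher and 1.55% lower). At 2 days 2 members reached it, both lower in knock-out, against 4.91% (640; 2.72% higher and 2.19% lower). DESeq2 called no member either, with 1 gene (0.00715%) at 14 days and 13 genes (0.0998%) at 2 days.

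**Figure D2:**
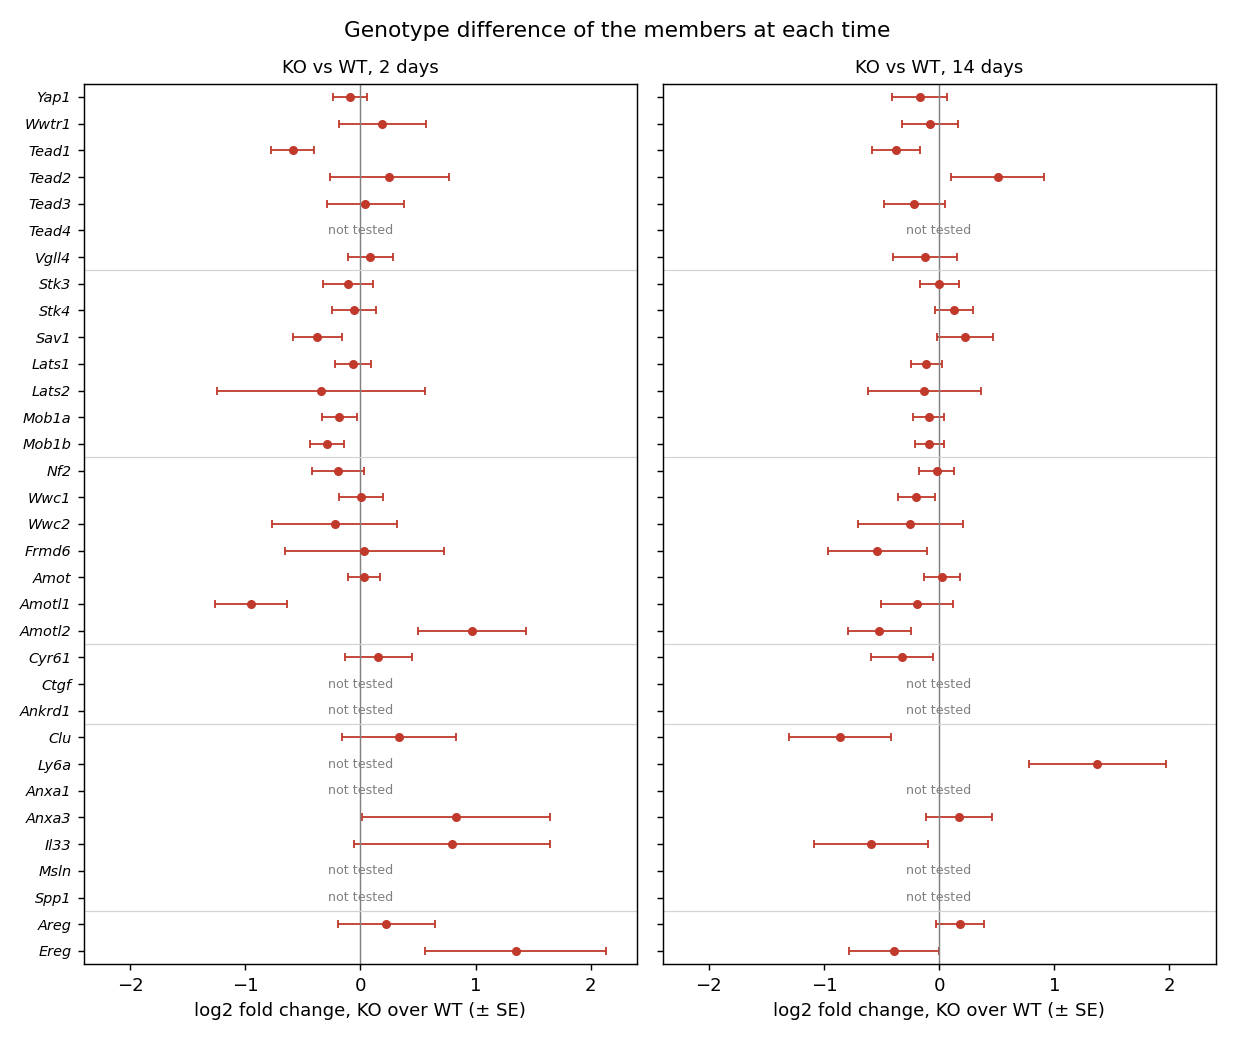
Log2 fold change of knock-out over wild type, with its standard error, for each of the 33 genes at 2 days (left) and 14 days (right); genes below the filter are marked as not tested. None passed the test, and the genes furthest from 0 are Ereg, Amotl2 and Amotl1 at 2 days and Ly6a and Clu at 14 days.

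Among the transcription factors, Tead1, the Tead gene with the highest level, gave the smallest p of the 33 at 2 days. It stood at 133, 139, 116 and 122 CPM in the 4 knock-out libraries, against 248, 169, 211 and 141 CPM in the 4 of wild type. Every knock-out library was below every wild-type library, though knock-out library 2 and wild-type library 4 lay close. The log2 fold change was -0.59 ± 0.18 (SE) and did not pass (unadjusted p = 0.00723, adjusted p = 0.866, edgeR quasi-likelihood test). An exact two-sided permutation test gave p = 0.0286, the smallest that 4 libraries against 4 allow, and 66 such tests of single genes were computed, none adjusted. Without wild-type library 1, the deepest, the log2 fold change was -0.45. At 14 days Tead1 stood at 22.03, 27.1, 28.8, 48.5 and 31.1 CPM in knock-out, against 37.0, 43.9, 34.4, 37.6 and 53.7 CPM in wild type. Knock-out library 4 was above 4 of the wild-type libraries and the other 4 knock-out libraries were below all of them, with a log2 fold change of -0.37 ± 0.21 (adjusted p = 0.957, edgeR). Averaged over both times in 1 fit of all 18 libraries, the genotype difference of Tead1 was -0.49 ± 0.14 on the log2 scale (unadjusted p = 0.00266, adjusted p = 0.829, edgeR). No member passed in that contrast, where 0.00647% of all genes was called (1 of 15458). Tead1 and Amotl1 had an unadjusted p under 0.05 in it, both lower in knock-out, against 5.81% of all genes (898; 3.24% higher and 2.57% lower), and DESeq2 called 0.0453% (7) and no member.

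Yap1 itself was close between the genotypes. It stood at 21.2, 37.8, 46.1, 49.6 and 28.9 CPM in knock-out, against 30.02, 42.3, 60.5, 43.5 and 33.8 CPM in wild type at 14 days. The 2 day values were 79.3, 69.5, 85.8 and 81.4 CPM in knock-out, against 88.8, 75.5, 83.5 and 89.2 CPM in wild type. The groups overlapped at both times, with log2 fold changes of -0.17 ± 0.24 at 14 days and -0.09 ± 0.15 at 2 days (adjusted p = 0.961 and 0.931, edgeR). Reads of Yap1 could include some of the overlapping gene model Gm20416 on the other strand, since no source used here gives the strand setting of the counting. Wwtr1 stood at 9.30, 16.0, 15.5, 17.3 and 25.4 CPM in knock-out, against 13.2, 22.7, 19.3, 16.99 and 17.1 CPM in wild type at 14 days. Its 2 day values were 12.4, 14.3, 6.63 and 27.9 CPM in knock-out, against 14.6, 14.1, 14.7 and 10.4 CPM in wild type. Knock-out libraries spread wider than wild-type ones at both times and held both the lowest and the highest value, with log2 fold changes of -0.08 ± 0.24 and 0.19 ± 0.38 (adjusted p = 0.982 and 0.944, edgeR). Tead2, Tead3 and Vgll4, a co-repressor that competes for Tead factors, had log2 fold changes of 0.51 ± 0.40, -0.21 ± 0.26 and -0.13 ± 0.28 at 14 days. At 2 days they had 0.25 ± 0.52, 0.04 ± 0.34 and 0.09 ± 0.20.

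The 7 genes of the kinases and their adaptors (Stk3, Stk4, Sav1, Lats1, Lats2, Mob1a and Mob1b) had log2 fold changes of -0.13 to 0.22 at 14 days, 3 above 0 and 4 below. At 2 days all 7 lay below 0, between -0.37 and -0.05, and none passed the test. All 7 lay in the 2 longest of 5 length groups, and the 2 day comparison itself moved with length. The median over all genes was -0.09 in the longest group and 0.20 in the shortest (-0.02 and 0.19 at 14 days). With that trend removed, Lats1 (0.02) and Stk4 (0.01) lay above 0 and the other 5 below. Mob1b, an adaptor of the Lats kinases, stood at 137, 110.3, 151 and 134 CPM in knock-out libraries at 2 days, against 184, 156, 152 and 161 CPM in wild-type libraries. The groups did not overlap, though the nearest libraries lay within 1 CPM of each other, and the log2 fold change was -0.29 ± 0.15 (adjusted p = 0.866, edgeR; exact two-sided permutation p = 0.0286). With the length trend removed the 2 day value of Mob1b was -0.15 and that of Tead1, also a long gene, was -0.47 (adjusted p = 0.94 and 0.935, edgeR). Tead1 and Mob1b were the only 2 of 26 tested members whose knock-out libraries all lay lower than the wild-type ones at 2 days, and 1.93% of all genes tested did so. At 14 days no tested member was separated, against 0.343% of genes with knock-out lower and 0.207% with knock-out higher. Sav1, the scaffold of the Mst kinases, stood at 47.6, 41.7, 48.8 and 36.9 CPM in knock-out at 2 days, against 79.9, 41.4, 53.7 and 52.1 CPM in wild type. The 14 day values of Sav1 were 12.9, 12.2, 9.95, 12.7 and 5.68 CPM in knock-out, against 6.33, 9.19, 10.3, 10.7 and 10.03 CPM in wild type. Its log2 fold changes were of opposite sign, 0.22 ± 0.24 at 14 days and -0.37 ± 0.21 at 2 days, and neither passed. Sav1 shares exon sequence with Atl1 on the other strand, so its counts are uncertain.

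Among the scaffolds upstream of the kinases, a pair of related genes lay furthest from 0 at 2 days. Amotl1 and Amotl2 code for angiomotin-like proteins, which sit at tight junctions and bind Yap. Amotl1 stood at 24.2, 12.6, 15.9 and 17.1 CPM in knock-out libraries at 2 days, against 48.3, 40.5, 18.1 and 27.8 CPM in wild-type libraries. Wild-type library 3 fell among the knock-out values and the other 3 wild-type libraries lay above all of them, for a log2 fold change of -0.95 ± 0.32 (unadjusted p = 0.0108, adjusted p = 0.866, edgeR). At 14 days Amotl1 stood at 5.79, 9.36, 5.27, 8.88 and 9.79 CPM in knock-out, against 7.17, 8.05, 4.96, 9.04 and 15.9 CPM in wild type. The groups overlapped, with a log2 fold change of -0.19 ± 0.31 (adjusted p = 0.967, edgeR). Averaged over both times the difference was -0.58 ± 0.23 (unadjusted p = 0.0192, adjusted p = 0.829, edgeR).

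Amotl2 lay on opposite sides of wild type at the 2 times. It stood at 16.6, 17.1, 11.8, 11.8 and 10.998 CPM in knock-out at 14 days, against 12.9, 37.6, 17.4, 15.2 and 16.4 CPM in wild type. Its 2 day values were 10.9, 11.5, 3.48 and 9.61 CPM in knock-out, against 2.57, 5.42, 7.12 and 3.14 CPM in wild type. Of the 4 knock-out libraries of 2 days, 3 were above all wild-type ones and library 3 was not. The log2 fold changes were -0.52 ± 0.28 at 14 days and 0.97 ± 0.47 at 2 days (adjusted p = 0.957 and 0.866, edgeR). The difference between them, 14 days minus 2 days, was -1.51 ± 0.52 and did not pass (unadjusted p = 0.00885, adjusted p = 0.762, edgeR). No member and no gene passed in that contrast (0.0% of 15458), where DESeq2 called 13 (0.0841%) and no member. An unadjusted p under 0.05 was reached by 921 genes (5.96%; 2.32% higher and 3.64% lower) and 2 members. They were Amotl2, lower, and Tead4, higher, at 2.71 ± 1.23 with at most 29 counts in a library (adjusted p = 0.815, edgeR). Ereg and Clu followed in that contrast, at -1.76 ± 0.86 and -1.22 ± 0.68, with no call. Wild-type library 2 at 14 days held the highest Amotl2 value, and without it the 14 day fold change was -0.16.

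Nf2 (Merlin, an activator of the pathway), Wwc1 and Wwc2 (Kibra proteins), Frmd6 and Amot had log2 fold changes of -0.54 to 0.02 at 14 days and -0.22 to 0.03 at 2 days. None passed. Wwc2 and Frmd6 stood at 0.679 CPM per kb or less in every group, so their folds had standard errors of 0.43 to 0.69.

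The known Yap targets did not separate the genotypes where they could be tested. Cyr61 stood at 457, 689, 546, 474 and 509 CPM in knock-out libraries at 14 days, against 579, 1214, 379, 587 and 629.7 CPM in wild-type libraries. The 2 day libraries had 721, 772, 310.1 and 636 CPM in knock-out, against 422, 775, 601 and 396 CPM in wild type. The groups overlapped at both times, and wild-type library 2 at 14 days was the highest of all 18. The log2 fold changes were -0.32 ± 0.27 at 14 days, or -0.01 without that library, and 0.16 ± 0.29 at 2 days (adjusted p = 0.957 and 0.941, edgeR). Ctgf had 0, 8, 7, 6 and 2 counts in knock-out libraries at 14 days, against 6, 35, 0, 17 and 17 counts in wild-type libraries. In the 2 day libraries it had 9, 7, 0 and 6 counts in knock-out, against 0, 4, 7 and 4 counts in wild type. Counts so low were below the filter, and Ctgf also overlaps Gm15270 on the other strand. Ankrd1, which codes for a nuclear repeat protein, had 1, 0, 3, 2 and 1 counts in knock-out at 14 days, against 7, 4, 3, 4 and 5 counts in wild type. In the 2 day libraries it had 0, 2, 0 and 0 counts in knock-out and none in the 4 wild-type libraries. On the CPM scale 4 of the 5 knock-out libraries lay below all wild-type libraries at 14 days (exact two-sided permutation p = 0.0238), a difference of a few reads per library.

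Of the fetal-like genes, Ly6a, which codes for the surface protein Sca-1, gave the smallest p of the 33 at 14 days. It had 61, 25, 29, 12 and 22 counts in knock-out libraries, against 8, 4, 23, 22 and 19 counts in wild-type libraries. Scaled, it stood at 4.65, 1.65, 2.12, 0.874 and 2.66 CPM in knock-out, against 0.418, 0.208, 1.97, 1.08 and 1.05 CPM in wild type. Of the 5 knock-out libraries, 3 lay above all wild-type ones and the other 2 within their range. The log2 fold change was 1.37 ± 0.60 and did not pass (unadjusted p = 0.0368, adjusted p = 0.957, edgeR; exact two-sided permutation p = 0.0714). It was 0.99 without knock-out library 1, which also held the highest summed goblet markers of its time (12640 CPM), and 1.79 without wild-type library 3. The part of goblet cells in the Ly6a value was not tested. At 2 days Ly6a had 2, 0, 12 and 20 counts in knock-out, against 9, 0, 7 and 1 counts in wild type, below the filter. Ly6a has closely related neighbours in the Ly6 family, whose reads the counting may have split. Of 11 other Ly6 family genes on a list, 2 were tested at 14 days, Ly6e (0.31 ± 0.19) and Lypd8 (0.40 ± 0.30), and neither passed.

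Clu, which codes for the secreted chaperone clusterin and marks regenerating crypts, stood at 11.5, 14.2, 11.8, 6.70 and 19.0 CPM in knock-out libraries at 14 days, against 11.3, 55.2, 7.35, 23.5 and 18.6 CPM in wild-type libraries. Its 2 day values were 3.49, 9.89, 2.49 and 8.46 CPM in knock-out, against 3.34, 6.70, 5.27 and 4.10 CPM in wild type. The groups overlapped at both times. The 14 day log2 fold change of -0.86 ± 0.45 (adjusted p = 0.957, edgeR) became -0.26 without wild-type library 2, and the 2 day value was 0.34 ± 0.50. Il33, the alarmin interleukin-33, had a log2 fold change of -0.59 ± 0.49 at 14 days and 0.79 ± 0.85 at 2 days. Anxa3, an annexin of the fetal-like set, had 0.17 ± 0.29 and 0.83 ± 0.82. Without knock-out library 1 the 2 day value of Anxa3 was -0.03 and that of Il33 was 0.30. This library held the highest summed enterocyte markers of its time (4932 CPM), whose part in these values was not tested. Anxa1, an annexin of inflamed and regenerating epithelium, had 1 to 21 counts in knock-out and 1 to 11 in wild-type libraries at 14 days, and was not tested.

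The EGF-type ligands overlapped between the genotypes too. Areg stood at 443, 432, 421, 383 and 435 CPM in knock-out libraries at 14 days, against 253, 571, 399.6, 377 and 292 CPM in wild-type libraries. The 2 day values of Areg were 104, 216, 53.0 and 129.7 CPM in knock-out, against 186, 102, 96.5 and 47.4 CPM in wild type. The 5 knock-out libraries of 14 days lay close together, inside the wild-type range, and the log2 fold changes were 0.18 ± 0.20 at 14 days and 0.22 ± 0.42 at 2 days (adjusted p = 0.957 and 0.941, edgeR). Ereg, epiregulin, stood at 3.20, 6.13, 4.02, 5.68 and 3.99 CPM in knock-out at 14 days, against 3.50, 12.3, 3.68, 7.71 and 3.53 CPM in wild type. Its 2 day values were 5.29, 9.86, 1.71 and 4.09 CPM in knock-out, against 0.171, 1.86, 4.52 and 1.79 CPM in wild type. The 2 day log2 fold change, 1.35 ± 0.79, was the furthest above 0 of the tested members, yet the groups overlapped and it did not pass (adjusted p = 0.866, edgeR). The 14 day value was -0.39 ± 0.39.

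**Figure D3:**
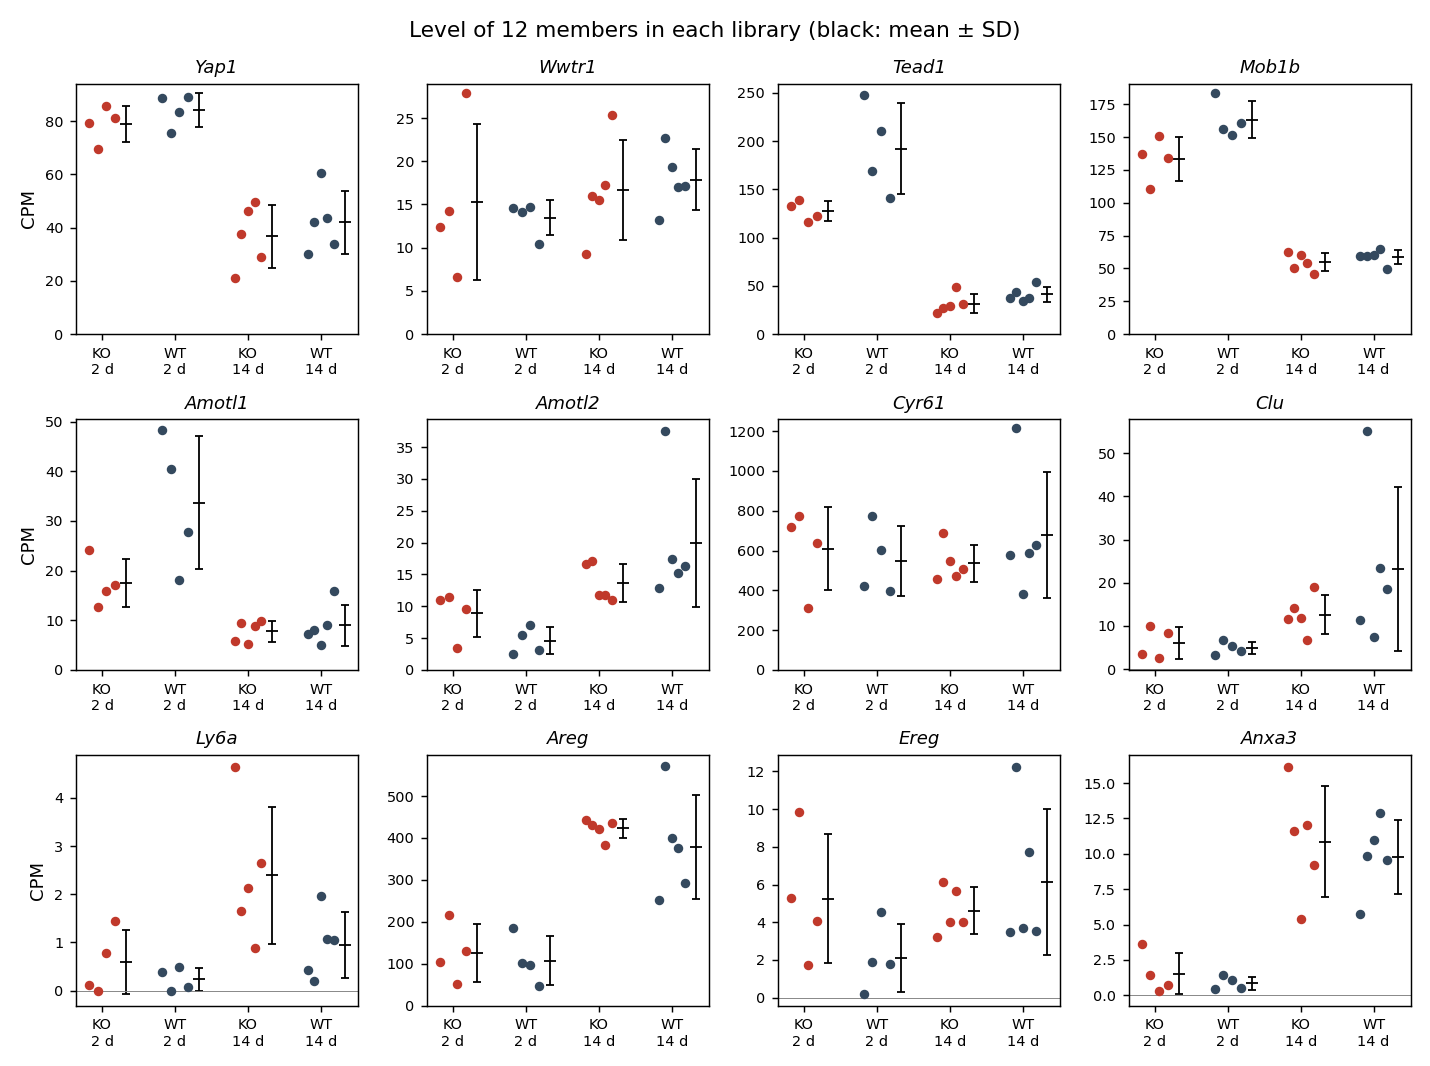
CPM of 12 of the genes in each library, knock-out (red) left of wild type (dark blue) at 2 days and at 14 days, with the mean ± SD in black. Genotypes overlap in most panels; the 14 day libraries stand apart from the 2 day ones for Yap1, Tead1, Mob1b, Areg and Anxa3.

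One wild-type library recurred among the high values. Wild-type library 2 held the highest value of the 14 day libraries for 8 of the 27 tested members, namely Tead3, Amotl2, Frmd6, Cyr61, Clu, Il33, Areg and Ereg. It had the lowest mitochondrial share of all 18 libraries, at 6.21%, and summed fibroblast markers of 0.311 CPM, the lowest of its time. At 2 days wild-type library 1, which stood apart, held the lowest value for 9 of 26 members, Ereg and Amotl2 among them, and the highest for 6, Tead1 and Amotl1 among them. Knock-out library 3 held the lowest for 6, namely Wwtr1, Tead1, Lats2, Cyr61, Clu and Anxa3, and the highest for 0. At 14 days wild-type library 3 held the highest for 3 and the lowest for 5. It had the highest mitochondrial share of its time, at 26.3%, and the highest summed Paneth and enterocyte markers (14010 and 5227 CPM). The part of RNA quality or of cell content in these values was not tested.

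The 14 day libraries were then set against the 2 day libraries within each genotype. The 2 times were deposited as separate tables, so time after tamoxifen cannot be told apart from any difference in run, cohort or handling between them. In knock-out 16 of the 30 members tested in the joint fit differed, 2 higher and 14 lower at 14 days, against 50.4% of all 15458 genes (25.3% higher, 25.1% lower). In wild type 19 of 30 differed, 6 higher and 13 lower, against 53.4% of all genes (27.7% higher, 25.7% lower; edgeR, adjusted p under 0.05). The median log2 fold change of the members was -0.65 in knock-out and -0.71 in wild type, against 0.06 and 0.12 over all genes. DESeq2 size factors moved the median of all genes to 0.15 in knock-out and 0.17 in wild type.

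Much of this comparison moved with gene length. Over all genes, split by exon length into 5 groups, the median log2 fold change was 1.17 in the shortest group and -0.46 in the longest in knock-out, and 1.29 and -0.51 in wild type. Most Hippo pathway genes are long and lay in the 2 longest groups, while Areg and Ly6a lay in the shortest. A fit that removes the length trend of each library was therefore added after the data had been seen. It called 26.0% of genes higher and 19.2% lower in knock-out, and 29.0% higher and 20% lower in wild type. Whether a member's call was kept in that fit is said beside it.

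**Figure D4:**
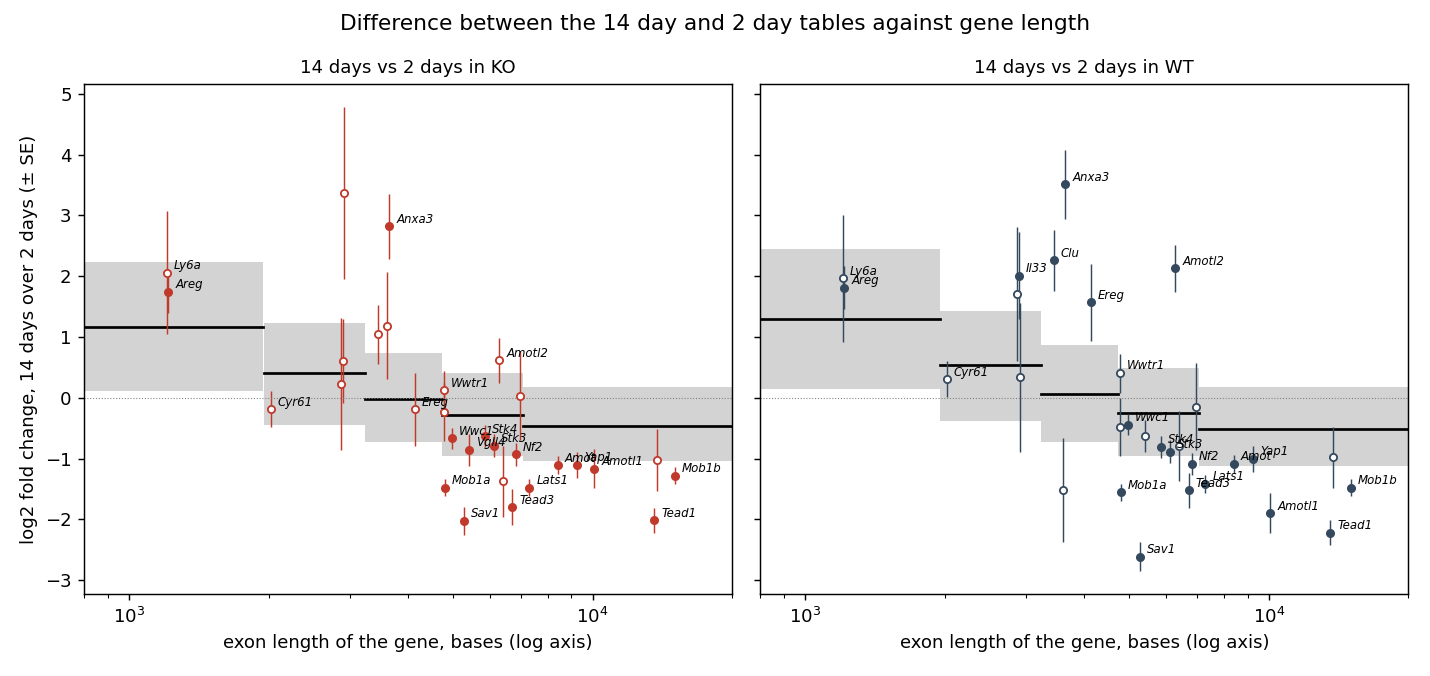
Log2 fold change of 14 days over 2 days with its standard error against exon length (log axis), in knock-out (left) and wild type (right); filled points passed the test, and only these and a few others are named. Black lines are the medians and grey bands the middle 50% of all genes of each length group, which run from above 0 for short genes to below 0 for long ones; Tead1, Sav1 and Mob1a lie under the bands and Anxa3 above.

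Of the factors that act at the DNA, Tead1 had 22.03 to 48.5 CPM in the knock-out libraries of 14 days, against 116 to 139 CPM in those of 2 days, and the sets did not overlap. It fell by 2.02 ± 0.21 on the log2 scale in knock-out and by 2.22 ± 0.21 in wild type (adjusted p = 9.13e-08 and 2.06e-08, edgeR). With the length trend removed the falls were 1.33 and 1.43, both still past the threshold. Tead3 fell by 1.80 ± 0.29 in knock-out and by 1.52 ± 0.29 in wild type, and kept both calls. Yap1 fell by 1.10 ± 0.22 in knock-out and by 1.01 ± 0.22 in wild type, but with the length trend removed its values of -0.49 and -0.30 no longer passed. Vgll4 passed in knock-out (-0.86 ± 0.27) and not in wild type (-0.63 ± 0.27), the genotypes did not differ by test, and the call was lost with the length trend removed. In wild type it passed without library 1 of 2 days or library 3 of 14 days (-1.02), which held 84.9 CPM against 27.9 to 39.6 CPM in the other 4. Wwtr1 did not differ past the threshold between times in either genotype, at 0.12 ± 0.32 in knock-out and 0.41 ± 0.32 in wild type.

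The kinase genes and their adaptors were lower at 14 days in both genotypes, 6 of 7 in each, all but Lats2. With 4 to 86 counts a library, Lats2 stood at 0.04 ± 0.73 in knock-out and -0.15 ± 0.72 in wild type, so its value is uncertain. Its exons also overlap another gene model on the same strand. All 7 lay in the 2 longest groups, where 35.0% and 44.6% of all genes were called lower in knock-out. In wild type these shares were 34.8% and 46.0%. Over all lengths 25.1% of genes were called lower in knock-out and 25.7% in wild type. Sav1 fell by 2.03 ± 0.24 in knock-out and by 2.61 ± 0.24 in wild type (adjusted p = 4.61e-07 and 1.48e-08, edgeR). Mob1a stood at 75.8, 81.2, 87.0, 86.8 and 83.4 CPM in the 14 day knock-out libraries, against 259, 185, 251.8 and 227 CPM in those of 2 days. In wild type it stood at 91.3, 97.8, 68.9, 101 and 87.3 CPM at 14 days, against 243, 246, 265 and 295 CPM at 2 days. No 14 day library reached the lowest 2 day library, and Mob1a fell by 1.48 ± 0.14 in knock-out and by 1.55 ± 0.14 in wild type (adjusted p = 3.91e-08 and 1.66e-08, edgeR). Lats1, the kinase that phosphorylates Yap, stood at 52.3, 49.9, 57.8, 62.0 and 68.8 CPM in knock-out at 14 days, against 159.7, 145, 186 and 156 CPM at 2 days. In wild type it stood at 61.9, 65.0, 55.8, 63.9 and 71.3 CPM at 14 days, against 136, 193, 170.4 and 179 CPM at 2 days. Again the times did not overlap, and Lats1 fell by 1.48 ± 0.14 and by 1.41 ± 0.14 in knock-out and wild type. Mob1b, at 62.4, 50.7, 60.3, 54.0 and 45.7 CPM in knock-out and 59.2, 59.2, 60.2, 64.9 and 49.7 CPM in wild type at 14 days, fell by 1.28 ± 0.14 and by 1.48 ± 0.14. With the length trend removed, Sav1, Mob1a, Lats1 and Mob1b kept their calls in both genotypes, while Stk3 and Stk4 lost theirs in both.

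Among the scaffolds, Amot fell by 1.11 ± 0.15 in knock-out and by 1.09 ± 0.15 in wild type and kept both calls with the length trend removed. Nf2 and Amotl1 fell in both genotypes and kept the call in wild type alone, and Wwc1 fell in both and kept neither. Amotl2 went the other way. It stood at 0.62 ± 0.37 on the log2 scale in knock-out (adjusted p = 0.174, edgeR) and rose by 2.13 ± 0.39 in wild type (adjusted p = 1.08e-04, edgeR). With the length trend removed it passed in both, at 1.11 in knock-out and 2.62 in wild type. The difference between the genotypes in this value is the contrast of -1.51 given above, which did not pass.

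The target Cyr61 did not differ past the threshold between times, at -0.19 ± 0.29 in knock-out and 0.31 ± 0.30 in wild type. Of the fetal-like genes, Anxa3 rose in both genotypes. It stood at 16.2, 11.6, 5.41, 12.01 and 9.19 CPM in knock-out libraries at 14 days, against 3.60, 1.45, 0.328 and 0.717 CPM at 2 days. In wild type it stood at 5.75, 9.86, 10.9, 12.9 and 9.54 CPM at 14 days, against 0.428, 1.40, 1.10 and 0.512 CPM at 2 days. The times did not overlap in either genotype, the log2 rises were 2.82 ± 0.54 and 3.52 ± 0.57 (adjusted p = 1.75e-04 and 2.42e-05, edgeR), and both calls were kept with the length trend removed. Its exons overlap another gene model on the same strand. Clu and Il33 stood at 1.04 ± 0.49 and 0.61 ± 0.69 in knock-out without passing, though Clu passed with DESeq2 (1.14), with no filter on low counts (1.02), and without knock-out library 2 of 2 days (1.39) or wild-type library 2 of 14 days (1.09). In wild type they rose by 2.26 ± 0.51 and 2.01 ± 0.72 and kept those calls with the length trend removed. The call of Il33 was lost without wild-type library 2 or 4 of 2 days (1.76 and 1.64), and no difference between the genotypes passed. Ly6a stood at 2.06 ± 1.01 in knock-out and 1.97 ± 1.05 in wild type and did not pass, though the knock-out value passed with DESeq2 (2.15) and without knock-out library 4 of 2 days (3.04). Of the other Ly6 family genes, Ly6c2, below the filter within each time, rose by 5.59 ± 1.69 in knock-out and by 6.34 ± 1.69 in wild type. Ly6e rose in knock-out alone (0.67 ± 0.23) and Lypd8 fell in wild type alone (-0.84 ± 0.33). With the length trend removed these calls were kept, and Lypd8 also passed as lower in knock-out (-1.06).

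Areg rose by 1.75 ± 0.35 in knock-out and by 1.81 ± 0.35 in wild type (adjusted p = 2.96e-04 and 1.98e-04, edgeR), and every 14 day library lay above every 2 day library. It has only 1215 bases of exon, and with the length trend removed its rises of 0.78 and 0.85 no longer passed. Ereg stood at -0.19 ± 0.60 in knock-out and rose in wild type by 1.57 ± 0.63 (adjusted p = 0.0409, edgeR), a call kept with the length trend removed and lost when wild-type library 1, 2 or 4 of 2 days or 2 or 4 of 14 days was left out (1.17 to 1.52, adjusted p = 0.0734 to 0.13). Its exons overlap a gene model on the other strand. Of the remaining tested members, Lats2, Tead2, Tead4, Wwc2, Frmd6, Ctgf and Anxa1 did not pass between times in either genotype with all libraries. The furthest from 0 was Anxa1 in knock-out, at 3.37 ± 1.41 from 1 to 21 counts a library at 14 days and 0 to 4 at 2 days (adjusted p = 0.0516, edgeR). It passed there in 6 of 18 fits that left out 1 library (knock-out library 1 of either time, or any wild-type library of 2 days), reaching 4.96, and with DESeq2. In wild type Anxa1 stood at 0.34 ± 1.23 and passed without library 2 of 2 days, which held all 18 counts of its group (5.50, adjusted p = 0.0154, edgeR, against up to 0.976 in the other fits). Frmd6 passed in knock-out without knock-out library 4 or wild-type library 1 of 2 days, or wild-type library 3 of 14 days, and in wild type without library 1 of 2 days (-1.18).

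Beside these values, the summed markers of other cell types also differed between the times, and their part in the results was not tested. Epithelial markers (7 of 7 with reads) summed to 5447 to 7391 CPM in knock-out and 5774 to 8056 CPM in wild type at 14 days, and to 4256 to 4845 CPM and 3846 to 4668 CPM at 2 days. Mean Cdh1 and Vil1 of that list were lower at 14 days in both genotypes. Cdh1 stood at 497 CPM against 1066 CPM in knock-out, and at 597 CPM against 1062 CPM in wild type. Goblet markers (7 of 7) summed to 1873 to 12640 CPM in knock-out and 1356 to 5794 CPM in wild type at 14 days, and to 575 to 1579 CPM and 592 to 804 CPM at 2 days. Mean Muc2 was lower at 14 days in wild type (285 against 297 CPM). Paneth markers (8 of 8) summed to 2751 to 4566 CPM in knock-out and 1719 to 14010 CPM in wild type at 14 days, and to 769 to 2219 CPM and 228 to 3506 CPM at 2 days. Mean Lyz1 was lower at 14 days in knock-out (340 against 443 CPM) and wild type (400 against 575 CPM). Mean Ang4 was lower in knock-out (163 against 194 CPM). The sum of the stem cell markers, given above, was lower in every 14 day library, though mean Smoc2 stood higher at 14 days, at 268 CPM (knock-out) and 316 CPM (wild type) against 249 CPM at 2 days for each, as did mean Ascl2 among knock-out libraries (36.6 against 35.4 CPM). Enterocyte markers (12 of 12) summed to 566 to 5227 CPM at 14 days and 835 to 4932 CPM at 2 days. These sums overlapped between the times, as did the Paneth sums in wild type. Single enterocyte genes moved both ways. Mean Anpep was lower at 14 days, at 53.8 against 689 CPM in knock-out and 68.6 against 509 CPM in wild type. Mean Fabp1 was higher, at 439 against 124 CPM in knock-out and 580 against 40.1 CPM in wild type.

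Tuft markers (8 genes, Il25 at 0 in wild type at 2 days) summed to 25.02 to 110.3 CPM at 14 days and 9.31 to 75.04 CPM at 2 days, and enteroendocrine markers (7 of 7) to 119 to 401 CPM and 30.4 to 399 CPM. Markers of cells outside the epithelium were low. Fibroblast markers (10 genes) summed to 1.61 to 11.6 CPM in knock-out and 0.311 to 3.31 CPM in wild type at 14 days, and to at most 1.11 CPM at 2 days, where Col6a1, Col6a2, Dcn and Lum were at 0 in both genotypes, Col3a1 in knock-out, and Pdgfra and Dpt in wild type. Mesothelial markers (4 genes, at 2 days Upk3b at 0 in both genotypes and Wt1 in wild type) summed to at most 1.76 CPM, smooth muscle (6 genes, Des at 0 in knock-out at 2 days) to at most 7.49 CPM, and glia and neurons (4 genes, Sox10 at 0 in knock-out at 2 days) to at most 6.96 CPM. Endothelial markers (8 genes, at 2 days Cdh5 and Cldn5 at 0 in both genotypes and Kdr and Tek in wild type, and at 14 days Cldn5 in knock-out) summed to 9.49 to 16.7 CPM at 14 days and 8.83 to 19.5 CPM at 2 days. Leukocyte markers (13 of 13) summed to 11.4 to 23.1 CPM at 14 days and 31.6 to 81.6 CPM at 2 days, with wild-type library 1 of 2 days highest. Cd68 and Itgam had the highest means of this list in every group. Mean Ptprc, Cd52 and Cd79a stood higher at 14 days in both genotypes, and mean Csf1r and Cd3g in knock-out alone. Ptprc stood at 1.79 against 0.931 CPM in knock-out and at 1.27 against 0.800 CPM in wild type.

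Other genes of the pathway were read from lists made by function, though with earlier results of these data known. Of 50 further Hippo regulators, such as the Taok and Map4k kinases upstream, the STRIPAK phosphatase subunits that oppose Mst, and the junction proteins Tjp1 and Fat1, none passed between the genotypes at 14 days or at 2 days (45 tested at each). Among them the smallest p at 2 days belonged to Taok1, a kinase that activates Mst, at -0.43 ± 0.14 (unadjusted p = 0.00875, adjusted p = 0.866, edgeR), and at 14 days to Strip2 at 0.77 ± 0.34 (unadjusted p = 0.0402, adjusted p = 0.957, edgeR). Between times 4 rose and 18 fell of 46 in knock-out, and 9 rose and 19 fell in wild type. The shares of all genes were 25.3% higher and 25.1% lower in knock-out, and 27.7% and 25.7% in wild type. With the length trend removed the counts of these regulators were 11 and 9 in knock-out and 17 and 11 in wild type. That fit called 26.0% of all genes higher and 19.2% lower in knock-out, and 29.0% and 20% in wild type. The atypical cadherin Fat1 fell by 2.21 ± 0.16 in knock-out and by 1.99 ± 0.15 in wild type, and Tjp1, the junction scaffold ZO-1, by 2.06 ± 0.15 and by 2.18 ± 0.15, each also past the threshold with the length trend removed.

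None of 20 further genes of a Yap signature passed between the genotypes (14 tested at 14 days, 13 at 2 days). Between times F3, tissue factor, rose by 2.62 ± 0.38 in knock-out and by 2.84 ± 0.39 in wild type, and Crim1 fell by 1.93 ± 0.26 and by 2.41 ± 0.26, and these calls were kept with the length trend removed. Of 15 further fetal-like or regenerative genes none passed between the genotypes (13 and 11 tested). Between times 8 rose and 2 fell of 14 in knock-out, and 9 rose and 1 fell in wild type. Over all genes 25.3% were called higher and 25.1% lower in knock-out, and 27.7% and 25.7% in wild type. Sprr1a, a cornified envelope protein, rose by 3.93 ± 0.72 in knock-out and by 5.29 ± 0.82 in wild type, while the adhesion receptor Cd44 fell by 1.33 ± 0.18 and by 1.18 ± 0.18. Once the length trend was removed, 8 rose and 1 fell in knock-out and 9 rose and 1 fell in wild type, Sprr1a and Cd44 among them. Of 10 other annexins none passed between the genotypes. Between times 3 rose and 1 fell of 8 tested in knock-out, and 4 rose and 1 fell in wild type, beside the shares of all genes just given. Anxa2 rose by 2.57 ± 0.25 in knock-out and by 3.01 ± 0.25 in wild type, while Anxa11 fell by 2.23 ± 0.54 and by 1.55 ± 0.52. Of 8 other EGF-type ligands none passed between the genotypes. Between times Hbegf rose by 0.73 ± 0.20 in knock-out and by 0.97 ± 0.20 in wild type, and Tgfa fell by 1.36 ± 0.22 and by 1.30 ± 0.22. The calls of Anxa2, Anxa11, Hbegf and Tgfa were kept in both genotypes with the length trend removed.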

How the data were processed

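Gene expression was measured by poly(A)-selected, SmartSeq-amplified and Nextera XT-tagged RNA sequencing. The authors deposited whole-number read counts per Ensembl gene, not normalized, in 1 table per time. The genome build was GRCm38 and the tools named were STAR 2.4.2a and bcl2fastq 2.20.0.422, per the submitters' processing notes. The annotation, counter and strand setting are named in no source used here. No molecular identifiers are named, so counts may include amplified copies, and the floor of 3 counts covers counting error only. Columns beginning with Dmin (2 days) were read as Dlg1 minus, the knock-out. Every 2 day genotype value rests on that reading. No 2 libraries were near-duplicates.

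Symbols, exon lengths and overlaps came from GENCODE M21. Ctgf and Cyr61 are listed there as Ccn2 and Ccn1. The members, lists and named genes were chosen with earlier results of these data known: values per library are given for 9 preset members and for the 4 of smallest p per comparison. From the other lists, genes of smallest p are named.

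Each time was fitted alone with edgeR 4.0.16 in R 4.3.3 (filterByExpr with a minimum count of 10, TMM, quasi-likelihood F-test), and all 18 libraries in 1 fit with 4 group means for differences between times and the average genotype effect. P-values were adjusted by Benjamini-Hochberg over all genes tested and called under 0.05. The standard error is the log2 fold change over the square root of F. Exact permutation tests used log2 CPM with a pseudocount of 0.5. Scripts were tested on simulated data. Alternatives were RLE factors, no filter, a minimum count of 50, DESeq2 1.42.0, leaving out mitochondrial and satellite-like genes, both libraries that stood apart, or each library, and, added after seeing the data, a lowess trend (span 0.3) on exon length as an offset, and the letter (B or J) in the 14 day column names as a term.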

Additional observations from a re-analysis of the deposited data

Results flagged for a closer look

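A library was singled out where its gap to the nearest library of its group was a large share of the group's range (Dixon's 95% critical value). Gap and range were taken on log2 CPM with a pseudocount of 0.5, while the values below are plain CPM. Over 120 groups of 4 or 5 libraries this gave 6 cases, the number that chance gives at this level. Amotl2 had 3.48 CPM in knock-out library 3 at 2 days, below the other 3, and 37.6 CPM in wild-type library 2 at 14 days, above the other 4. Wwtr1 had 10.4 CPM in wild-type library 4 at 2 days, below the other 3. Frmd6 had 0.471 CPM in wild-type library 1 at 2 days and 0.684 CPM in wild-type library 3 at 14 days, each the lowest of its group. Anxa1 had 1.05 CPM in wild-type library 2 at 2 days, where the other 3 libraries of its group were at 0. The 6 cases fell in 6 different libraries.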

How the results depend on the processing

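No member was called between the genotypes, in the difference between times or in the average under any alternative run. Counts of all genes called moved. Between the genotypes they were 2 at 14 days and 7 at 2 days with no filter, and 1 and 13 with DESeq2, against 0. For the difference between times they were 98 with no filter and 13 with DESeq2, against 0. For the average they were 40 with no filter, 7 with DESeq2 and 2 without both libraries that stood apart, against 1. With each library left out in turn they ranged from 0 to 1 at 2 days, 0 to 0 at 14 days, 0 to 1 for the difference and 1 to 2 for the average. Between times they ranged from 7234 to 8581 genes in knock-out and 7660 to 8429 in wild type, and members called from 16 to 18 in knock-out and 17 to 20 in wild type, against 16 and 19. With the length trend removed 9 of 30 members were called in knock-out (2 higher, 7 lower) and 14 of 30 in wild type (5 higher, 9 lower). The shares of all genes in that fit were 26.0% higher and 19.2% lower in knock-out, and 29.0% and 20% in wild type. No filter moved the median of all genes between times to 0.82 in knock-out and 0.83 in wild type. At 14 days 558 genes had an unadjusted p under 0.05 between the genotypes with all libraries (edgeR). With 1 library left out this number ran from 315 (without wild-type library 2) to 1746 (without wild-type library 3).

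Some values changed sign, none of them called, and not all of them were near 0. With the length trend removed these were, among the members given by library, Areg at 14 days (-0.0073), Yap1 at 2 days (0.016), and between times Cyr61 in wild type (-0.25) and Ereg in knock-out (0.0063). The same held for Nf2 at 14 days, for Lats1 and Stk4 at 2 days, and between times for Tead2 in knock-out and Lats2 in wild type. With any 1 library left out, 10 of 27 members changed sign at 14 days and 15 of 26 at 2 days, and between times 4 of 30 in knock-out and 2 of 30 in wild type. Among the members given by library, the values ran at 14 days from -0.54 to 0.018 for Ereg and from -0.30 to 0.079 for Wwtr1. At 2 days they ran from -0.17 to 0.61 for Areg, from -0.0055 to 0.58 for Clu and from -0.28 to 0.42 for Wwtr1. Between times in knock-out they ran from -0.16 to 0.65 for Ctgf, from -0.47 to 0.32 for Ereg and from -0.12 to 0.58 for Wwtr1. Without both libraries that stood apart Wwtr1 between times in knock-out was -0.058. The cause was not tested. Between times in wild type, the call of Wwc1 was lost under 6 of the 7 alternatives that leave out no single library, all but leaving out both libraries that stood apart, and also without wild-type library 2 or 3 of 2 days or 1, 2 or 5 of 14 days. No paired analysis was possible because the names in the tables give no replicate number of the labels; the fit with a replicate block was not run. The 14 day names carry a letter, B in 2 and J in 3 libraries of each genotype, whose meaning no source used here gives. With it as a term 0 genes were called at 14 days (547 at an unadjusted p under 0.05), and Ly6a stood at 1.53 ± 0.65 and Tead1 at -0.39 ± 0.20.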
